A study of Mus musculus with 12 samples.

Results

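The 7 genes described here are Kruppel-like factors (Klf genes) known from heart muscle and endothelium: Klf2, Klf4, Klf6, Klf9, Klf10, Klf13 and Klf15. They were taken as the rows of the deposited count table whose Ensembl identifier maps to these symbols, 7 of 55401 rows, and all 7 passed the filter on low counts that left 16213 genes for testing. RNA was sequenced in bulk from hearts of wild-type C57BL/6J mice in 4 groups of 3 libraries: females that exercised, sedentary females, males that exercised and sedentary males. Exercised mice ran on a treadmill for 6 weeks, on 5 days a week for 45 min at 1 km/h, and sedentary mice of matched age stayed caged for that time. The sources used here give neither the age itself, nor the part of the heart taken, nor the hour of collection. Libraries are treated as coming from 1 animal each, although the labels do not say so, and p-values therefore reflect how far these libraries spread. The study asks what endurance exercise changes in the heart and whether the sexes differ in it.

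Kruppel-like factors are zinc-finger transcription factors that bind GC-rich and CACCC elements in promoters. In endothelium, Klf2 and Klf4 are induced by laminar blood flow through the kinase ERK5 and MEF2 factors, and they raise anticoagulant and vasodilator genes and lower inflammatory ones. In heart muscle, Klf15 restrains hypertrophy and drives lipid and amino acid use, and it follows the circadian clock and glucocorticoids. Klf9 is induced by glucocorticoids and thyroid hormone, and Klf10 by TGF-beta. Klf2, Klf4, Klf6 and Klf10 are also induced within minutes by stress and growth signals, as immediate early genes are. Klf13 works with GATA4 in heart development in Xenopus.

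All 7 are protein-coding, and in the GRCm38 annotation no exon of theirs overlaps an exon of another gene. Klf2 (ENSMUSG00000055148.7) lies at chr8:72319033-72321656 on the plus strand. Klf4 (ENSMUSG00000003032.8) lies at chr4:55527143-55532466 on the minus strand. Klf6 (ENSMUSG00000000078.7) lies at chr13:5861482-5870394 on the plus strand. These members had the smallest p-values of the 7 for exercise in males and between sedentary females and males. The other locations are chr19:23141226-23168134 on the plus strand for Klf9 (ENSMUSG00000033863.2), chr15:38291463-38300706 on the minus strand for Klf10 (ENSMUSG00000037465.10), chr7:63886351-63938915 on the minus strand for Klf13 (ENSMUSG00000052040.10) and chr6:90462576-90475238 on the plus strand for Klf15 (ENSMUSG00000030087.11).

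The upstream sequences of Klf2, Klf4 and Klf6 are printed because of those p-values, the smallest among the members. The 2 comparisons use the same sedentary males and are not independent. They run 5' to 3' on the gene's own strand, 220 bases each, and end 31 bases before the start site given by RefSeq (build GRCm38.p6). Capitals mark matches to the motifs named in the next paragraph. The Klf2 stretch is chr8:72318812-72319031 on the plus strand, the Klf4 stretch chr4:55532506-55532725 on the minus strand and the Klf6 stretch chr13:5861239-5861458 on the plus strand.
Klf2: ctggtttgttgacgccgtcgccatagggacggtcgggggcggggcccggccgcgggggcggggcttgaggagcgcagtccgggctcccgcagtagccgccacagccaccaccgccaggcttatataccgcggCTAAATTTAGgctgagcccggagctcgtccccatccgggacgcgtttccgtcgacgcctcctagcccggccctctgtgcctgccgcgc
Klf4: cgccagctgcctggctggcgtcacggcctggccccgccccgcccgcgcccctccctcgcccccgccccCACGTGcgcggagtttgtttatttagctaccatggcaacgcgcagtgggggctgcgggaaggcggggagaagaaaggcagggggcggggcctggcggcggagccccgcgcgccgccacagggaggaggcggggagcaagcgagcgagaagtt
Klf6: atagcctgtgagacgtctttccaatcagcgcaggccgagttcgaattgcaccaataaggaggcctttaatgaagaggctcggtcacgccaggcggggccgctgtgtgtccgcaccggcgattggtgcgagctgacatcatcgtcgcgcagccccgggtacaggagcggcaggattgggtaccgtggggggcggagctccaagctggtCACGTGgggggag

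In all, 5 motifs were searched on both strands of the 300 bases around the RefSeq start site: CACCC, the Kruppel-type box, CACGTG, the E-box bound by clock factors and MYC, TGACGTCA, the cyclic AMP response element, the MEF2 consensus, and the glucocorticoid receptor site. RefSeq promoters were at hand for 6 of the 7 members, all but Klf10. The MEF2 consensus was found in the Klf2 promoter, starting 118 bases before the start site, and in 3.16% of all 32544 promoters. A CACGTG was found in 3 of the 6 promoters, with 1 match each in Klf4 and Klf6 and 3 in Klf15, against 7.17% of all promoters. CACCC was found in 4 of 6, namely Klf2, Klf9, Klf13 and Klf15, against 57.7% of all, and the Klf2 match, on the minus strand 19 bases before the start, lies past the printed stretch. TGACGTCA was found in none of the 6 and in 1.8% of all promoters, and the glucocorticoid receptor site in none of the 6 and in 0.476% of all. The GC content was 69.3% for Klf2 and 74.3% for Klf4, against a median of 53.0% over all promoters. Matches describe the letters of these windows and show no binding.

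The libraries held between 22204349 and 32566240 counts each. The highest was 26607844 once 37 rows of the mitochondrial genome were set aside, which had no counts in 11 libraries and 27.3% of all counts in the library female sedentary 2. The tissue label held: 8 markers of ventricular muscle summed to 63450 to 73450 counts scaled to library size (CPM) in every library. All 13 endothelial markers were detected, with sums of 1461 to 1629 CPM in exercised females and 1521 to 1757 CPM in sedentary ones, and of 1582 to 1698 CPM in exercised and 1536 to 1558 CPM in sedentary males. The atrial myosin light chain Myl7 was above 10 CPM in 3 libraries, female exercised 2, female sedentary 1 and female sedentary 2, and results were also computed without them. Red cell markers summed to 17.78 to 292.7 CPM in exercised females and 34.56 to 3630 CPM in sedentary ones, and to 12.65 to 86.21 CPM in exercised and 8.262 to 43.6 CPM in sedentary males.

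Klf2 and Klf4 were the most abundant of the 7 per length of exon, with all annotated exons of a gene merged. On the scale of CPM per kilobase of exon, the mean level over 12 libraries was 104 for Klf2, 78.25 for Klf4, 37.1 for Klf6, 32.92 for Klf9, 21.53 for Klf15, 5.28 for Klf13 and 5.265 for Klf10. Klf2 was above Klf4 in 11 of 12 libraries, Klf4 above Klf6 in 12, Klf9 above Klf15 in 12 and Klf15 above Klf13 in 12. Klf6 was above Klf9 in 9 libraries and Klf13 above Klf10 in 7, so the order of these neighbours changed among libraries. Levels were not tested between genes. The lowest count of any member was 331, for Klf10, which has a counting error of 5.5%, and the highest was 8483.

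**Figure D1:**
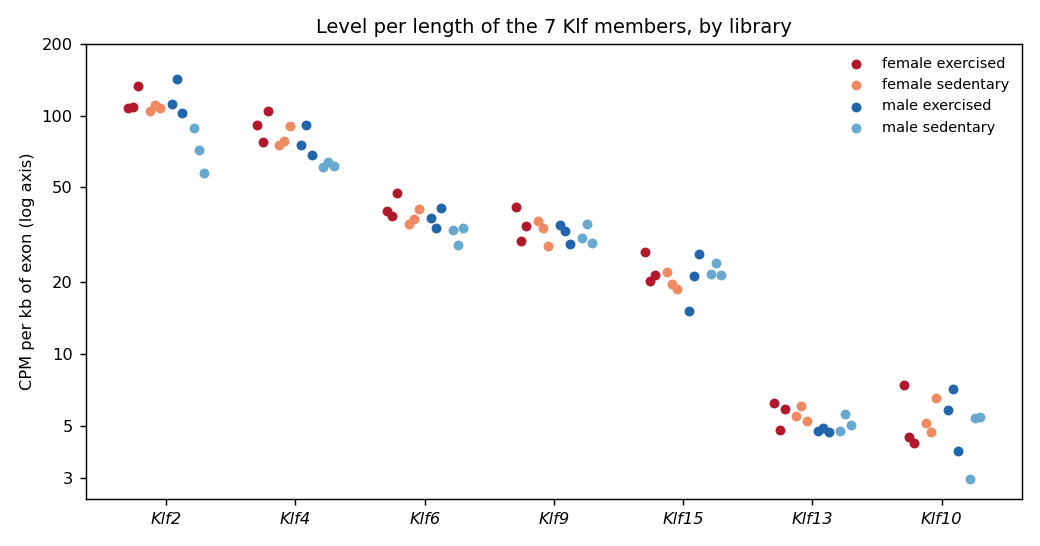
Level of each Klf gene in each of the 12 libraries, in CPM per kilobase of exon on a log axis, ordered by the mean over libraries. Points are single libraries coloured by group, and the means run from 104 for Klf2 to 5.265 for Klf10.

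The members differed in how steady they were among hearts. From the lowest to the highest library, the level spanned 2.48-fold for Klf2 and for Klf10, 1.76-fold for Klf15, 1.72-fold for Klf4, 1.64-fold for Klf6, 1.45-fold for Klf9 and 1.33-fold for Klf13. The mean coefficient of variation within groups was 27.3% for Klf10 and 7.87% for Klf13, against a median of 11.2% over all tested genes. Klf10 thus spread widely inside groups. The others had 13.6% for Klf2, 10.5% for Klf4, 9.22% for Klf6, 11.9% for Klf9 and 14.2% for Klf15.

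Klf2, the flow-induced factor of endothelium, had 198.7, 200.4 and 246.5 CPM in the exercised females, against 193.8, 204.2 and 198.6 CPM in the sedentary females. In males it had 207.6, 263.9 and 188.8 CPM in exercised hearts, against 163.8, 132.6 and 106.4 CPM in sedentary hearts. The 3 sedentary male libraries were the lowest of all 12, and the other 3 groups overlapped one another.

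Klf4, its close relative with overlapping endothelial targets, had 278.6, 235.6 and 319.4 CPM in the exercised females, against 229.3, 239.2 and 275.0 CPM in the sedentary females. It had 229.8, 277.4 and 208.7 CPM in exercised males, against 185.9, 195.6 and 188.4 CPM in sedentary males. Here too the sedentary males lay below the other 9 libraries, and they spread little, with 190 ± 5.04 CPM (SD, n = 3). This order held for 289 of 16213 tested genes, or 1.78%, and was looked for after the values of Klf2 and Klf4 were seen.

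Klf6, an early response gene of injured vessels and of many other cells, had 174.8, 167.1 and 207.8 CPM in the exercised females, against 154.5, 161.8 and 177.6 CPM in the sedentary females. It had 163.0, 148.8 and 179.2 CPM in exercised males, against 145.0, 126.4 and 149.0 CPM in sedentary males. Both pairs of groups overlapped, in the males because male exercised 2 lay just under male sedentary 3.

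Klf10, the TGF-beta-inducible member, had 30.97, 18.72 and 17.66 CPM in the exercised females, against 21.51, 19.65 and 27.22 CPM in the sedentary females. It had 24.4, 29.88 and 16.4 CPM in exercised males, against 12.49, 22.42 and 22.72 CPM in sedentary males. Female exercised 1 was the highest and male sedentary 1 the lowest of the 12, and all 4 groups overlapped.

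Klf15, the metabolic regulator of heart muscle, had 74.44, 56.23 and 60.1 CPM in the exercised females, against 61.41, 54.69 and 52.32 CPM in the sedentary females. It had 42.2, 59.32 and 73.34 CPM in exercised males, against 60.14, 67.2 and 59.71 CPM in sedentary males. Exercised males thus held both the lowest library of the 12 and the second highest.

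Klf9, the hormone-induced member, had 198.8, 143.5 and 165.7 CPM in the exercised females, against 174.0, 161.9 and 136.7 CPM in the sedentary females. It had 167.6, 158.2 and 139.1 CPM in exercised males, against 147.8, 168.6 and 140.5 CPM in sedentary males. Its 4 groups overlapped.

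Klf13 had 47.0, 36.07 and 44.25 CPM in the exercised females, against 41.44, 45.73 and 39.29 CPM in the sedentary females. It had 35.77, 36.63 and 35.31 CPM in exercised males, against 35.61, 42.04 and 38.03 CPM in sedentary males. The exercised males formed a narrow band of 35.9 ± 0.674 CPM (SD, n = 3) at the low end of the 12 libraries, and it overlapped both the exercised females and the sedentary males.

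**Figure D2:**
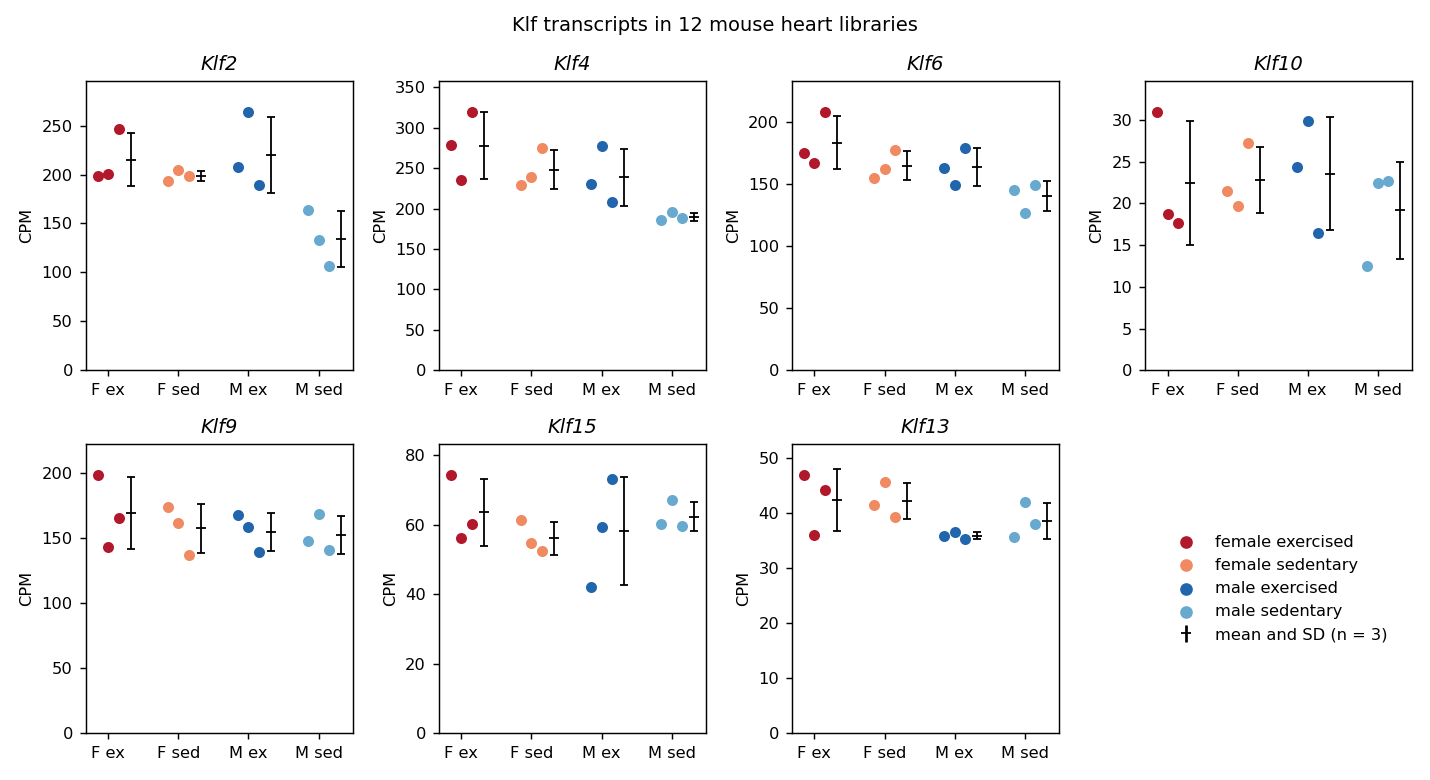
CPM of the 7 Klf genes in the 12 heart libraries, by group (F female, M male, ex exercised, sed sedentary), with 1 point per library and the mean and SD (n = 3) at its right. The sedentary males lie below the other 9 libraries for Klf2, at 106.4 to 163.8 CPM, and for Klf4, at 185.9 to 195.6 CPM.

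In females, no difference between exercised and sedentary hearts was called in any of the 7 members. The log2 differences, exercised minus sedentary, were 0.11 ± 0.16 for Klf2, 0.17 ± 0.12 for Klf4, 0.15 ± 0.10 for Klf6 and -0.02 ± 0.31 for Klf10 (SE, 3 libraries each). They were 0.10 ± 0.12 for Klf9, 0.18 ± 0.17 for Klf15 and 0.01 ± 0.10 for Klf13. By the quasi-likelihood test of edgeR, adjusted by Benjamini and Hochberg, 0 of the 7 members and 0% of 16213 genes were called at 0.05, and each member had an adjusted p of 0.9998. Unadjusted p-values under 0.05 were reached by 0 members and 637 genes. The groups overlapped in all 7 members, against 9.79% of all genes without overlap.

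In males, Klf2 was 0.71 ± 0.16 higher on the log2 scale in exercised than in sedentary hearts, higher in every exercised library than in every sedentary one, and this did not pass the correction (edgeR adjusted p = 0.567, rank 15 of 16213). Klf4 differed by 0.33 ± 0.12 (edgeR adjusted p = 0.615), also without overlap. Klf6 differed by 0.22 ± 0.10 (edgeR adjusted p = 0.627), with overlap. No overlap was seen in 2 of 7 members, both higher, and in 12.3% of all genes. The other members were closer to 0 or less precise: Klf10 at 0.30 ± 0.31, Klf9 at 0.02 ± 0.12, Klf15 at -0.10 ± 0.17 and Klf13 at -0.10 ± 0.10. By edgeR 0 members and 0% of genes were called in males, while 3 members and 1271 genes had an unadjusted p under 0.05.

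The call for Klf2 depended on the tool and on the filter. Without a filter on low counts, edgeR called Klf2 in males (0.71, adjusted p = 6.466e-11), among 327 of 33281 genes called. In the bias-adjusted form of that test it did not call Klf2. DESeq2, which tested 6166 genes here after its own filter, called Klf2 in males at 0.71 (adjusted p = 0.0145) and no other member, with 0.405% of its genes called. Averaged over the sexes, Klf2 was 0.41 ± 0.11 higher in exercised hearts (edgeR adjusted p = 0.782), with 0% of genes called by edgeR. DESeq2 called that difference too (0.41, adjusted p = 0.0333), with 0.61% of its genes called. For Klf4 the average was 0.25 ± 0.08 and for Klf6 0.19 ± 0.07 (SE), and neither was called by DESeq2 or by edgeR with its filter. Without a filter, edgeR called the average for Klf2 (adjusted p = 1.737e-07) and for Klf4 (0.25, adjusted p = 0.0273), among 399 of 33281 genes called. Neither was called in the bias-adjusted form.

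Whether exercise acted differently in the 2 sexes was tested directly. The effect on Klf2 was 0.60 ± 0.22 smaller in females than in males (edgeR adjusted p = 0.931), which edgeR with its filter did not call. For the other 6 members the edgeR adjusted p of the difference was 0.94 or higher, and the differences ran from -0.32 ± 0.44 for Klf10 to 0.28 ± 0.24 for Klf15. With its filter edgeR called 0% of genes in this comparison, and DESeq2 called 0.205%, no member among them. Without a filter edgeR called Klf2 (-0.59, adjusted p = 0.0026), among 173 of 33281 genes called, but not in the bias-adjusted form. DESeq2 called 0.00301% of genes for exercise in females, no member among them.

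**Figure D3:**
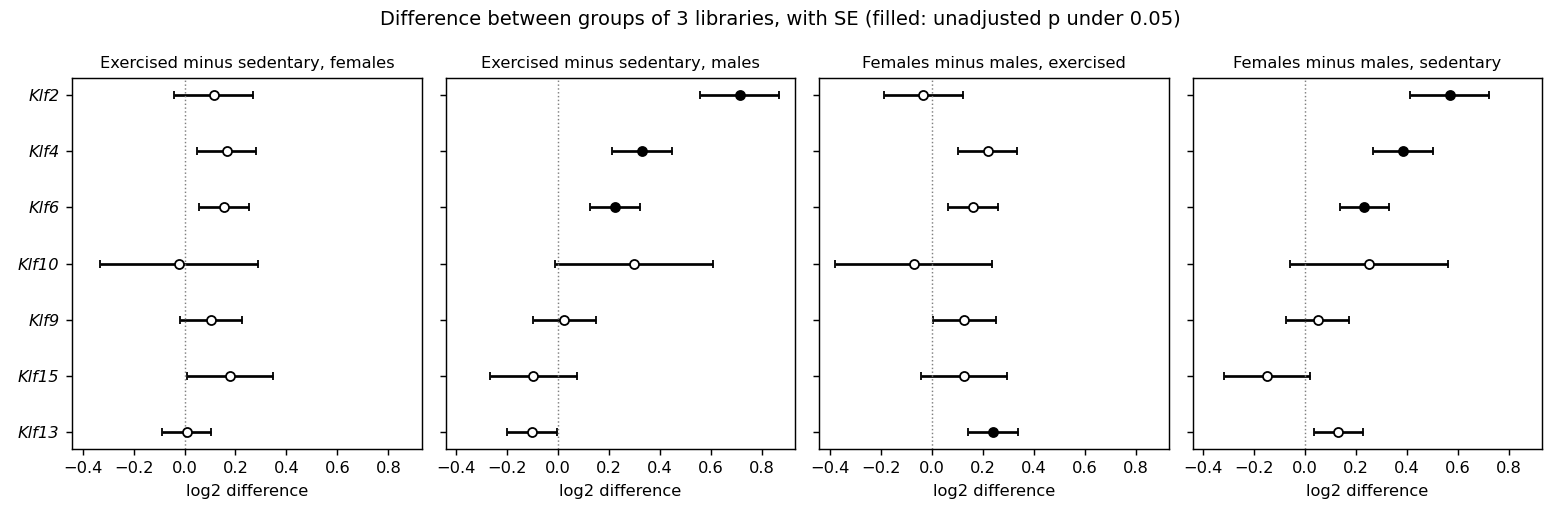
Log2 difference of each Klf gene with its SE in 4 comparisons of 3 libraries with 3, from 1 edgeR model of all 12 libraries; filled points have an unadjusted p under 0.05. Klf2, Klf4 and Klf6 lie to the right of 0 in males for exercise (0.71, 0.33 and 0.22) and in sedentary hearts for females minus males (0.57, 0.38 and 0.23).

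Between the sexes, the same 3 members had the smallest p-values in sedentary hearts. Klf2 was 0.57 ± 0.16 higher in sedentary females than in sedentary males (edgeR adjusted p = 0.0881), Klf4 0.38 ± 0.12 (adjusted p = 0.109) and Klf6 0.23 ± 0.10 (adjusted p = 0.225). In all 3 every female library was above every male one, 3 of 7 members, against 25% of all genes without overlap. None was called by edgeR with its filter, which called 2.21% of genes here. DESeq2 called Klf2 (adjusted p = 0.00977) and Klf4 (adjusted p = 0.0439), with 5.97% of its genes called. The sedentary males are shared by this comparison and by that of exercise in males, so the 2 sets of values are not independent.

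The calls between sedentary hearts depended on which libraries were fitted. In the fit of all 12 libraries edgeR called 358 genes here, or 2.21%, and 68 to 462 genes with each library left out in turn. Fitted on the 6 sedentary libraries alone, Klf4 was called (0.39, adjusted p = 0.0433 by edgeR). Klf2 was called by edgeR once male sedentary 1, the highest of its group, was left out (0.73, adjusted p = 0.0447), and was at 0.42 without male sedentary 3, the lowest.

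In exercised hearts no member was called between the sexes. Klf2 differed by -0.03 ± 0.16, females minus males, Klf4 by 0.22 ± 0.12, and Klf13 by 0.24 ± 0.10 (edgeR adjusted p = 0.42). EdgeR called 0.16% of genes and DESeq2 1.15%. The groups overlapped in all 7 members, against 14.3% of all genes without overlap. Klf13 alone of the members, and 1595 genes, had an unadjusted p under 0.05.

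Marker levels differed along with some of these values. In bulk tissue, fewer cells of a type and less RNA per cell cannot be told apart, so a lower Klf2 level can be either. The mean log2 CPM of the 13 endothelial markers was 6.606, 6.747 and 6.741 in exercised males and 6.611, 6.592 and 6.577 in sedentary males, and 12 of 13 were above 0 for exercise in males, with a median log2 difference of 0.072 and 0 called. With that mean as a covariate, Klf2 in males was at 0.60 ± 0.17 and Klf4 at 0.22 ± 0.12, against 0.71 and 0.33 without it. In sedentary females the mean was 6.573, 6.772 and 6.661, and between sedentary females and males the covariate gave 0.49 ± 0.16 for Klf2 and 0.30 ± 0.11 for Klf4, against 0.57 and 0.38 without it. Other cell types differed as well. All 6 macrophage markers were above 0 for exercise in males (median 0.25) and between sedentary females and males (median 0.24), with 0 called. The 3 fat cell markers tested had a median of 4.23 between sedentary females and males, with 0 called. Of the cell type markers only the endothelial mean was used as a covariate, and the part of the others was not tested.

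Immediate early genes outside the Klf family, such as Fos, Jun and Egr1, differed more widely among libraries. Their mean log2 CPM was 8.220, 8.698 and 7.642 in exercised males and 7.027, 7.892 and 7.793 in sedentary males, and 8.662, 8.327 and 8.381 in exercised and 8.061, 7.897 and 8.057 in sedentary females. All 18 were above 0 for exercise in both sexes, with medians of 0.45 in females and 0.66 in males and 0 called, where the median of all genes was 3e-04 and 7e-04. With their mean as a covariate, Klf2 in males stayed at 0.72 ± 0.21 and Klf6 was at 0.34 ± 0.11, while Klf4 was at 0.17 ± 0.13. Klf10 in males was at -0.33 with this covariate, against 0.30 without it. Male exercised 3 had a lower immediate early mean than male sedentary 2 and 3, and more Klf2 than either. Male exercised 2 had the highest immediate early mean and the most Klf2 of the male libraries. Between sedentary females and males all 18 were above 0 (median 0.37), and edgeR called 1, against 2.21% of all tested genes: Dusp1, a phosphatase that ends MAP kinase signals. It averaged 722 ± 22.7 CPM in sedentary females and 535 ± 69.7 CPM in sedentary males (0.43 ± 0.11, edgeR adjusted p = 0.0489), and it was not called without the Myl7 libraries or with the endothelial covariate. With the immediate early covariate, Klf2 was at 0.57 and Klf4 at 0.28 between sedentary females and males. This covariate was itself higher with exercise in both sexes and was added after the data were seen. The part of the immediate early genes in the Klf values was not tested.

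**Figure D4:**
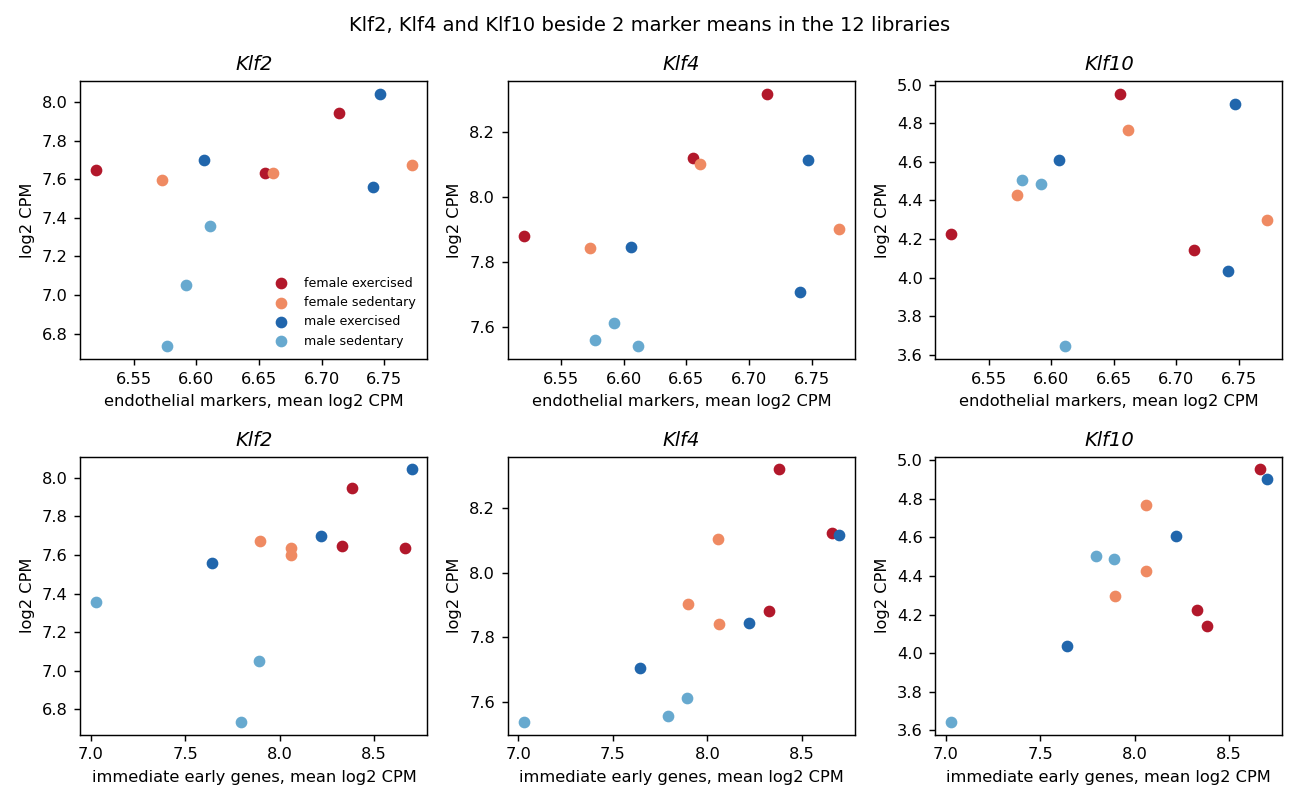
Log2 CPM of Klf2, Klf4 and Klf10 (columns) against the mean log2 CPM of 13 endothelial markers (upper row) and of 18 immediate early genes (lower row), with 1 point per library. For Klf2 the 3 sedentary males lie lowest on the vertical axis. Of these 3, male sedentary 1 has the most Klf2, at 163.8 CPM, and the lowest immediate early mean of all libraries, at 7.027.

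Leaving out the 3 libraries with Myl7 above 10 CPM kept Klf2 in males at 0.71 ± 0.18, since all 3 are female, and at 0.56 ± 0.25 between sedentary females and males, where 1 female library was left. Klf4 then differed by 0.53 ± 0.14 between sedentary females and males.

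**Figure D5:**
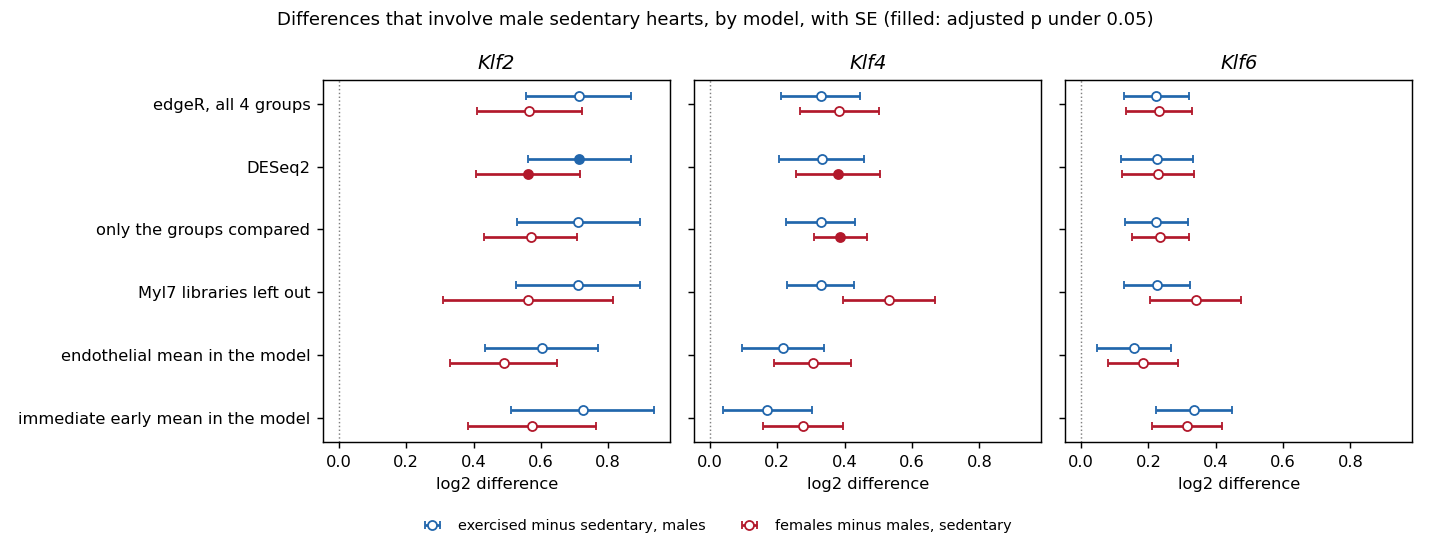
Log2 difference with SE for Klf2, Klf4 and Klf6 under 6 models, for exercise in males (blue) and females minus males in sedentary hearts (red); filled points have an adjusted p under 0.05. Klf2 in males lies between 0.60 and 0.72 in all 6, and of these 6 models DESeq2 calls it.

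Genes upstream of Klf2 and Klf4 gave no call. Of 11 listed members of the flow pathway and the cerebral cavernous malformation complex, which restrains it, 4 were above 0 for exercise in males and 3 in females, and none passed. Mef2a, a factor that binds MEF2 sites, had the smallest p in males (-0.21 ± 0.10, edgeR adjusted p = 0.631). It averaged 168 ± 10.3 CPM in exercised and 194 ± 20.9 CPM in sedentary males. Map2k5, the kinase that activates ERK5, differed by 0.14 ± 0.09 in males and 0.12 ± 0.09 in females.

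Genes that KLF2 or KLF4 induce in endothelium showed no called difference either. Of 9 tested, 7 were above 0 for exercise in males (median 0.084) and 4 in females (median -5e-04). Nos3, the endothelial nitric oxide synthase, averaged 39.8 ± 6.46 CPM in exercised and 35.5 ± 1.37 CPM in sedentary males (0.16 ± 0.10, edgeR adjusted p = 0.705). Between sedentary females and males, 7 of 9 were above 0 with a median of 0.14. Thbd, thrombomodulin, averaged 131 ± 2.02 CPM in sedentary females and 104 ± 11.6 CPM in sedentary males (0.33 ± 0.10, edgeR adjusted p = 0.0915), and Nos3 44.6 ± 2.20 and 35.5 ± 1.37 CPM (0.33 ± 0.10, adjusted p = 0.116). Groups did not overlap for these 2 of 9 genes, against 25% of all tested genes, a share near the background.

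Among genes that these factors repress, no difference was called. Of 6 listed, 5 were above 0 for exercise in males (median 0.23) and 4 in females (median 0.081). Sele, the adhesion molecule E-selectin, averaged 7.16 ± 4.13 CPM in exercised and 3.20 ± 1.31 CPM in sedentary males (1.17 ± 0.46, edgeR adjusted p = 0.627). Ccl2, a chemokine that draws monocytes, averaged 32.3 ± 9.78 and 18.5 ± 5.96 CPM in the same groups (0.81 ± 0.34, adjusted p = 0.628). In females, Ccl2 averaged 40.7 ± 9.07 CPM in exercised hearts and 23.9 ± 6.81 CPM in sedentary hearts (0.77 ± 0.33, edgeR adjusted p = 0.9998). Sele averaged 9.83 ± 1.18 and 6.97 ± 0.963 CPM in the same groups (0.50 ± 0.43, edgeR unadjusted p = 0.276). It was the 1 gene of the 6 without overlap there, against 9.79% of all tested genes.

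Genes linked to KLF15 in heart muscle carry out fatty acid and amino acid use and potassium current. Of 13 listed, 6 were called between sedentary females and males, where 2.21% of all tested genes were called. The list was chosen with earlier results of these data known, so setting it beside all genes is a description and no test. By edgeR all 6 were lower in females: Acadl, Acsl1, Fabp3, Gpt, Hadhb and Slc25a20. Slc25a20, the carnitine carrier of mitochondria, averaged 166 ± 9.79 CPM in sedentary females and 260 ± 13.2 CPM in sedentary males (-0.65 ± 0.09, adjusted p = 0.00446). Fabp3, the heart fatty acid binding protein, averaged 2250 ± 143 and 3090 ± 297 CPM in the same groups (-0.46 ± 0.09, adjusted p = 0.0230). Klf15 itself averaged 56.14 ± 4.71 CPM in sedentary females and 62.35 ± 4.21 CPM in sedentary males, and its difference of -0.15 ± 0.17 was not called.

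These 6 calls were not stable. With the 3 Myl7 libraries left out 0 of 13 were called, with the endothelial mean as a covariate 2 and with the immediate early mean 1, while the median stayed below 0 (-0.17 in the full set, -0.27, -0.18 and -0.30). Slc25a20 alone was called without any 1 of female sedentary 2, female sedentary 3 or male sedentary 3. Other markers differed between these groups too. The 8 ventricular muscle markers summed to 63450 to 64960 CPM in sedentary females and 66130 to 73450 CPM in sedentary males, with 7 of 8 below 0, a median of -0.14 and 0 called. The 6 fibroblast markers summed to 860.4 to 964.7 and 801 to 812.4 CPM in the same groups, with 4 above 0, a median of 0.35 and 1 called. The 3 atrial markers that passed the filter summed to 2.033 to 164.8 CPM in sedentary females and 1.735 to 3.045 CPM in sedentary males. Their part in the 6 calls was not tested.

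For exercise in females, all 13 genes of that list were above 0, with a median of 0.16, and 0 were called by edgeR. Groups did not overlap for 8 of them, against 9.79% of all tested genes. As the list was chosen with earlier results known, this too is a description. Gpt2, an alanine aminotransferase and a KLF15 target, averaged 42.8 ± 3.27 CPM in exercised females and 33.6 ± 3 CPM in sedentary ones (0.35 ± 0.11, edgeR adjusted p = 0.9998). In males 7 of 13 were above 0, with a median of 0.018. Across all genes, 50.1% were above 0 in females.

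The TGF-beta pathway around Klf10 held 1 called gene among 11, between sedentary females and males, where 2.21% of all tested genes were called. Smad7, the inhibitory SMAD, averaged 33.6 ± 2.09 CPM in sedentary females and 23.4 ± 1.97 CPM in sedentary males (0.52 ± 0.12, edgeR adjusted p = 0.0416), and it was not called without the Myl7 libraries or with either covariate. Of 11 genes, 10 were below 0 for exercise in females and 6 above 0 in males, none called. Tgfb1, the ligand, averaged 24.5 ± 5.09 CPM in exercised and 19.4 ± 2.90 CPM in sedentary males (0.33 ± 0.15, adjusted p = 0.63).

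Hormone-responsive and clock genes, set beside Klf9 and Klf15, gave no call. Of 10 glucocorticoid-responsive genes, 8 were above 0 for exercise in females (median 0.25) and 2 in males (median -0.17). Their mean log2 CPM was 5.822, 4.808 and 5.609 in exercised and 5.272, 5.069 and 5.280 in sedentary females. Female exercised 2 thus lay below every sedentary female. Fkbp5, a chaperone induced by glucocorticoids, averaged 53.4 ± 22.3 CPM in exercised females and 41.0 ± 4.83 CPM in sedentary ones, and 23.9 ± 4.02 CPM in exercised and 32.5 ± 7.21 CPM in sedentary males. Of 15 clock and output genes, 8 were above 0 in females and 12 in males. Dbp, a clock output factor, averaged 58.8 ± 36.3 CPM in exercised and 26 ± 16.5 CPM in sedentary males. For exercise in either sex, groups overlapped in all 10 glucocorticoid-responsive and all 15 clock and output genes. Of all tested genes, 9.79% in females and 12.3% in males did not overlap.

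No other gene of the Klf family was called. Of 10 other Klf genes, 7 passed the filter, and Klf1, Klf14 and Klf17 had at most 5, 8 and 1 counts in any library. EdgeR called none of the 7 in any of the 6 comparisons. Their median log2 differences were -0.052 for exercise in males and -0.016 between sedentary females and males, against 0.22 and 0.23 for the 7 members. The members were chosen with earlier results of these data known, so the medians are a description. Klf3, a transcriptional repressor, had the smallest p in males (-0.20 ± 0.08, edgeR adjusted p = 0.623). Of the related Sp factors, 4 of 9 were tested and none was called.

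Members were also compared with one another within groups, as log2 CPM of each library minus its group mean over 12 libraries. The highest of 21 correlations was that of Klf9 and Klf13 (Pearson r = 0.757, exact permutation p = 0.0463, adjusted p = 0.785; Spearman rho = 0.797, exact permutation p = 0.0247), and r was 0.587 without the 2 libraries farthest from the median. Klf2 and Klf4 had r = 0.558 (exact permutation p = 0.0748, rho = 0.469), and r = 0.619 without 2 libraries. None of the 21 pairs passed the correction.

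On the same measure, the genes most like each member among the 16213 tested are given as a description. For Klf2 they were Cdc25a (r = 0.947), Fpgs (0.941) and Tubg1 (0.939), and for Klf4 Ccdc93 (0.906), Fam110a (0.905) and Ednrb (0.904). For Klf6 they were Gpbp1 (0.967), Capn7 (0.965) and Dock4 (0.961). Klf10 was nearest to Pcna-ps2 (0.982), the immediate early gene Nr4a1 (0.937) and Impdh2 (0.929). Klf9 was nearest to an unnamed gene, ENSMUSG00000118434, then Ucp2 (0.922) and Lrg1 (0.921). The genes nearest to Klf15 were Prrt1 (0.950), Gm43205 (0.923) and Art5 (0.920), and those nearest to Klf13 were Retreg2 (0.959), Becn1 (0.911) and Abcg3 (0.911). The 12 points share library depth and scaling.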

How the data were processed

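Heart RNA of 12 libraries was analysed from 1 deposited table of counts per gene, which the authors made and did not normalize. The submitters' processing notes name Trimmomatic 0.36, STAR 2.5.2b, featureCounts from Subread 1.5.2 and the genome GRCm38. Neither the annotation release nor the use of strand is given in those notes. Names, exon lengths and coordinates, counted from 1, come from GENCODE M21, and 55141 of 55401 rows have a symbol.

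Library sizes were scaled by TMM in edgeR 4.0.16 under R 4.3.3. With filterByExpr, 16213 genes were tested, and 1 group-means model with 8 residual degrees of freedom gave 6 contrasts by the robust quasi-likelihood test, with p-values adjusted over all genes and called under 0.05. CPM values are scaled counts. DESeq2 1.42.0, another scaling, 2 other filters, fits of only the groups compared, the endothelial mean as a covariate, the libraries with Myl7 above 10 CPM left out, and each library left out were alternatives. The immediate early mean as a covariate and the bias-adjusted test without a filter were added after seeing the data. The fits were tested on simulated data. Named were all 7 members, up to 4 list genes of smallest p per comparison and the 3 genes most like each member. The members and lists were chosen with earlier results of these data known.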

Additional observations from a re-analysis of the deposited data

How the results depend on the processing

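No paired analysis was possible because the labels of the 4 groups share no replicate numbers. Directions and calls of the members were compared with those of edgeR with TMM scaling and its filter. Without a filter, 33281 genes were tested. Genes called then numbered 357 for exercise in females, 327 in males, 173 for the difference between them and 399 for the average. Between the sexes they numbered 531 in exercised and 1317 in sedentary hearts. Without a filter Klf2 was called in all but exercise in females and the sexes in exercised hearts. Klf4 was called there on average (adjusted p = 0.0273) and between the sexes in sedentary hearts (0.00407). The cause was not tested. With the bias-adjusted test and no filter, 43 genes were called between the sexes in exercised hearts and no member was called in any comparison. DESeq2 called 1, 25, 10, 14, 167 and 866 genes in the same order. Fitting only the groups compared gave 15 genes between the sexes in exercised hearts. Between the sexes in sedentary hearts, 14 genes were called without the Myl7 libraries, which leaves fewer libraries, 165 with the endothelial mean and 96 with the immediate early mean as a covariate.

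Leaving out each library in turn gave 0 to 1 calls for exercise in females, 0 to 0 in males, 0 to 1 for their difference, 0 to 1 for the average, 17 to 55 between the sexes in exercised and 68 to 462 in sedentary hearts. Against 26 and 358 in the full set, the count moved over 1.5 times without male exercised 1 (55) or male exercised 3 (17) in exercised hearts, and without female exercised 1 or 2 or any 1 sedentary library (68 to 236) in sedentary hearts.

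Signs turned only in differences that no setting called. With the immediate early mean as a covariate these were Klf13 in females (-0.0602), Klf10 in males (-0.33), on average (-0.42) and between sedentary females and males (-0.15), and Klf9 in males (-0.11), on average (-0.0504) and between sedentary females and males (-0.0418). With the endothelial mean they were Klf6 for the difference between the sexes' effects (0.0186), Klf15 on average (-0.0057) and Klf2 between exercised females and males (0.0379). Without the Myl7 libraries they were Klf13 on average (0.0572), Klf2 (0.0161) and Klf10 (0.0432) between exercised females and males, and Klf9 between sedentary females and males (-0.16). With 1 library left out, the range crossed 0 for Klf10 in females (-0.33 to 0.12), on average (-0.0151 to 0.24) and between exercised females and males (-0.37 to 0.14). It did so for Klf9 in females (-0.0301 to 0.21), in males (-0.0368 to 0.10), for the difference (-0.0536 to 0.19), on average (-0.0033 to 0.12), and between the sexes in exercised (-0.0026 to 0.24) and sedentary hearts (-0.0252 to 0.14). For Klf13 it ran from -0.0726 to 0.11 in females and -0.0881 to 0.0045 on average, for Klf15 from -0.30 to 0.0885 in males, -0.0614 to 0.13 on average and -0.0596 to 0.33 between exercised females and males. It ran from -0.14 to 0.12 for Klf2 between exercised females and males, and from -0.17 to 0.0010 for Klf6 in the difference between effects. Klf2 in males ranged from 0.56 to 0.88, and its smallest adjusted p by edgeR was 0.196.

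With 3 libraries a group, the median SE of a log2 difference was 0.14. Klf10 had the fewest counts and the widest SE of the members. The counting error of its lowest count was 5.5%, against a mean coefficient of variation within groups of 27.3%.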
